A study of Mus musculus with 2 samples.

Results

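The 38 genes described here encode enzymes that build, modify and break down sphingolipids, among them the sialylated glycolipids called gangliosides. They were picked out by symbol, from serine palmitoyltransferase at the start of the pathway to the ganglioside sialyltransferases at its end. All 38 symbols were found among the 55416 features of the gene table, and each had at least 1 unique molecular identifier (UMI, 1 captured transcript) in both libraries. Droplet libraries were made from nuclei of whole fetal mouse brain, 1 from wildtype tissue and 1 from tissue labelled as Cav1 knockout. Cav1 encodes caveolin, the coat protein of caveolae, membrane pits that are rich in sphingolipids and cholesterol. The deleted stretch of Cav1, the strain, the gestational day and the number of fetuses per library are not given in the sources used here. With 1 library per genotype there was no spread between replicates and no test, so every interval below is a 95% interval that covers counting error only. Paired values are given with the wildtype-labelled library first, and ratios between libraries are knockout-labelled over wildtype-labelled.

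Sphingolipids are built on a ceramide, a sphingoid base with an attached fatty acid. Ceramide is turned into sphingomyelin in the Golgi, into galactosylceramide for myelin, or into glucosylceramide, from which lactosylceramide and the gangliosides are made, and its breakdown releases sphingosine, which can be phosphorylated to a signalling lipid. In developing brain, progenitors are known for simple gangliosides and neurons for complex ones, while galactosylceramide synthesis is best known from oligodendrocytes.

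The starts of the genes that the comparison of cell classes turned on are shown here, the 3 that were higher in radial glia than in cortical neurons and Cers6, the most counted of the 38. Each is a window of 300 bases, from 250 before to 50 after the RefSeq start, on the strand of the gene in GRCm38.p6, while the counts use GRCm39. Capitals mark GGGCGG or its reverse complement, the box bound by Sp and Klf factors. They lie at chr10:41490291-41490590 (minus strand) for Smpd2, chr3:125938603-125938902 (minus) for Ugt8a, chr19:32103091-32103390 (minus) for Asah2 and chr2:68861191-68861490 (plus) for Cers6.
Smpd2: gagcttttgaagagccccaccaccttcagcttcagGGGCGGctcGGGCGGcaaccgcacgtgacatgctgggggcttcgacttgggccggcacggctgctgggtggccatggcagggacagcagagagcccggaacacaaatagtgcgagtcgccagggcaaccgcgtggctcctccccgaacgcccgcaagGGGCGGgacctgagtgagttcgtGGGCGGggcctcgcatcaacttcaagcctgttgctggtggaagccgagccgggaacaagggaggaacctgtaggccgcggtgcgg
Ugt8a: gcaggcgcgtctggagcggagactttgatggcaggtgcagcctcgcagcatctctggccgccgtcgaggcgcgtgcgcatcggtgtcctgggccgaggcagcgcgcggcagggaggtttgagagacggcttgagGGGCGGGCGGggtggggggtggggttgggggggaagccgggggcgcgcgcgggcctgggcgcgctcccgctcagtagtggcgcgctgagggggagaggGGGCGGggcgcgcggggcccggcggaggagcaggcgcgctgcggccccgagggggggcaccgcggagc
Asah2: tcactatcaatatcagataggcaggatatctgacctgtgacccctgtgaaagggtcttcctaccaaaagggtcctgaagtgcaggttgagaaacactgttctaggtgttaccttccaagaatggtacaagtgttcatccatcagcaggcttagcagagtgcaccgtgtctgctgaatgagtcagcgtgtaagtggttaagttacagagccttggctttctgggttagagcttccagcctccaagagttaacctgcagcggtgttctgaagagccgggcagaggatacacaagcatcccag
Cers6: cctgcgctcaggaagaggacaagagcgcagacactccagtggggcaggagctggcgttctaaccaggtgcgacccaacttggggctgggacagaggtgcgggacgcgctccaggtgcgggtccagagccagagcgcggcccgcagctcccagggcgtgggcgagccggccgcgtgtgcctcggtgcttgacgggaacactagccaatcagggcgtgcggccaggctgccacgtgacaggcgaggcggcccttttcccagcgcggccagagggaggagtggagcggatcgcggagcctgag
Smpd2 held 4 such boxes and Ugt8a 3, counting overlapping ones, while the windows of Asah2 and Cers6 held 0. RefSeq windows matched 31 of the 38 genes, 46 windows in all, with a median GC content of 63.7% beside 52.7% over all 32851 windows. GGGCGG was in 29 of the 46 (63.0%) and in 35.7% of all windows. On both strands alike, CACGTG was in 8 (17.4%, beside 7.15% of all), TATAAA in 2 (4.35%, beside 13.6%), CCAAT in 15 (32.6%, beside 37.4%), and TGGGAA in 8 (17.4%, beside 25.6%). CAGCTG and CTTTGT were in 5 each (10.9%), beside 16.3% and 18.7% of all. Asah2, with 4 CpG in its window, stands apart from the 25 of Smpd2, 40 of Ugt8a and 28 of Cers6. A match is a description of these letters and not a bound site.

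After removal of barcodes with under 500 detected genes or more than 5% mitochondrial UMIs, the wildtype-labelled library kept 6686 nuclei with 17205381 UMIs, and the knockout-labelled one kept 6680 nuclei with 19878903 UMIs. The median nucleus held 2133.5 and 2366 UMIs. The check of the targeted gene was mixed. Cav1 had 71 and 80 UMIs over all nuclei, whereas in nuclei gated as endothelial cells, where caveolin is abundant, it had 17 UMIs in 47 nuclei and 1 UMI in 64 nuclei. The libraries also stood apart in brain region: 39 Hox genes, which mark hindbrain and spinal cord, had 32 and 554 UMIs, or 1.86 and 27.9 CPM, the UMIs of a gene scaled to a total of 1e+06 UMIs per library or class. Cortical excitatory neuron markers summed to 2132 and 1687 CPM and endothelial markers to 180 and 279 CPM. These differences move with genotype, and their part in the results below was not tested. The libraries shared 43 barcodes, 10 of them among the kept nuclei.

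The genes together had 25249 and 29959 UMIs, or 1467.5 and 1507.1 CPM. The log2 ratio of these sums was 0.04 with an interval of 0.01 to 0.06. Every role was close to level between the libraries. The log2 ratio of the sums was 0.02 (-0.02 to 0.05) for ceramide synthesis and 0.06 (0.01 to 0.12) for sphingomyelin and ceramide phosphate. It was 0.09 (0.02 to 0.16) for ceramide breakdown and sphingosine phosphate, 0.05 (-0.02 to 0.12) for cerebrosides and lactosylceramide, and 0.01 (-0.06 to 0.08) for gangliosides. In sums over all nuclei, fewer nuclei of a type and less RNA per nucleus cannot be told apart.

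A difference was called where the CPM of the libraries differed at least 1.3-fold and the gene had at least 100 UMIs over both. Of the 38 genes 37 had that many UMIs, the exception being Sphk1 with 18 in each library. Sgms2, Acer2 and St8sia3 were called higher and St8sia5 lower in the knockout-labelled library. Over all 15528 genes with as many UMIs, 5.97% were called higher and 3.04% lower, 9.01% in all, so 3 and 1 of 37 lie near the background. The median log2 ratio was 0.07 over the 37 genes and -0.01 over all 15528. The plot of library ratios by role shows the intervals of all 38 genes.

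**Figure D1:**
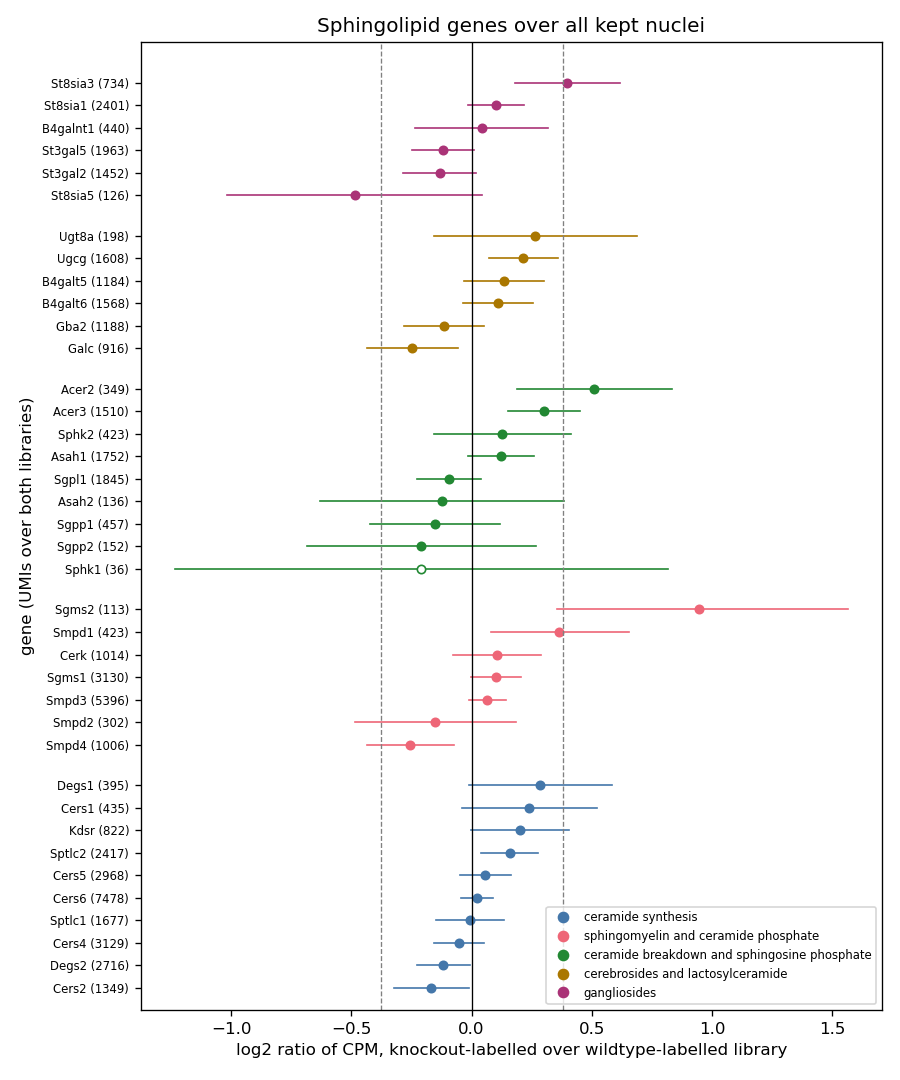
Log2 ratio of CPM, knockout-labelled over wildtype-labelled library, for each of the 38 genes over all kept nuclei, grouped by role, with bars for the 95% counting interval. Most genes sit within the 1.3-fold limits, with Sgms2 farthest above at 0.95 and St8sia5 farthest below at -0.48.

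Ceramide synthesis starts with serine palmitoyltransferase, whose subunits Sptlc1 and Sptlc2 stood at 45.3 and 45.1 CPM and at 61.4 and 68.5 CPM. Kdsr, the reductase of the next step, stood at 20.5 and 23.6 CPM. Ceramide synthases then attach the fatty acid, each with a preferred chain length. Cers6, which prefers palmitoyl chains, had the most UMIs of all 38 genes, 3439 and 4039, and stood at 200 and 203 CPM, a log2 ratio of 0.02 (-0.04 to 0.09). Cers4 and Cers5 stood between 78.3 and 86.0 CPM in both libraries. Cers2, the synthase of very long chains, stood at 38.7 and 34.4 CPM, a log2 ratio of -0.17 (-0.32 to -0.01), and Cers1, known as the neuronal synthase, at 10.7 and 12.6 CPM. The desaturase Degs1, which turns dihydroceramide into ceramide, stood at 9.53 and 11.6 CPM. Its relative Degs2, which also hydroxylates, stood at 76.4 and 70.5 CPM. No gene of these 10 was called. Divided by gene span the levels lay in another order: Degs2 stood at 3.24 and 2.98 CPM per kb, Cers2 at 3.15 and 2.80, and Cers6 at 0.790 and 0.803. Degs2 was the highest of the 38 on this scale in the wildtype-labelled library, and Smpd1, at 3.15 CPM per kb, in the other. Whether span is the fitting scale depends on the use of intronic reads, which the sources used here do not give. Degs2 overlaps Evl on the other strand, a gene at 272 and 268 CPM, and whether strand entered the counting is not given in the sources used here.

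Sgms1 and Sgms2 transfer phosphocholine to ceramide and so make sphingomyelin. Sgms1 carried most of these UMIs, at 81.3 and 87.1 CPM. Sgms2, on chromosome 3 from 131112634 to 131197172 of the minus strand (GRCm39), had 35 and 78 UMIs. That is 2.03 and 3.92 CPM, a log2 ratio of 0.95 (0.35 to 1.57). The sphingomyelinases reverse the step. Smpd1, the acid enzyme of the lysosome, had 170 and 253 UMIs, or 9.88 and 12.7 CPM, and its log2 ratio of 0.37 (0.08 to 0.65) lay just under the limit for a call. Among the neutral enzymes Smpd3 was the most counted at 142 and 149 CPM. Smpd2 stood at 8.60 and 7.75 CPM, and Smpd4 at 29.7 and 24.9 CPM with a log2 ratio of -0.25 (-0.44 to -0.07). Cerk, which phosphorylates ceramide, stood at 26.3 and 28.3 CPM.

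Ceramidases cleave ceramide in different compartments. Asah1, the acid ceramidase of the lysosome, stood at 45.1 and 49.1 CPM, and Asah2, the neutral ceramidase, at 3.84 and 3.52 CPM. Acer2, the alkaline ceramidase of the Golgi, lies on chromosome 4 from 86792537 to 86853061 (plus strand, GRCm39). It had 132 and 217 UMIs, or 7.67 and 10.9 CPM, a log2 ratio of 0.51 (0.19 to 0.83). Acer3, a related alkaline ceramidase, stood at 36.2 and 44.6 CPM, from 623 and 887 UMIs, and its log2 ratio of 0.30 (0.15 to 0.45) was under the limit. The sphingosine kinases were low, Sphk1 at 1.05 and 0.905 CPM and Sphk2 at 10.9 and 11.9 CPM. Sgpl1, the lyase that ends the pathway by cleaving sphingosine phosphate, stood at 51.5 and 48.2 CPM. Sgpp1 and Sgpp2, which dephosphorylate the same lipid, stood at 13.0 and 11.7 CPM and at 4.42 and 3.82 CPM.

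Ugcg makes glucosylceramide, the parent of the gangliosides, and stood at 39.9 and 46.3 CPM, a log2 ratio of 0.21 (0.07 to 0.36). Ugt8a makes galactosylceramide and stood at 4.82 and 5.79 CPM. Its degrading enzyme Galc, which is lost in Krabbe disease, stood at 27.0 and 22.7 CPM, a log2 ratio of -0.25 (-0.44 to -0.06). Gba2, a glucosylceramidase outside the lysosome, stood at 33.4 and 30.8 CPM. The lactosylceramide synthases B4galt5 and B4galt6 stood at 30.3 and 33.3 CPM and at 40.6 and 43.8 CPM. No gene of these 6 was called.

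St3gal5 adds the first sialic acid to lactosylceramide and stood at 55.3 and 50.9 CPM. St8sia1, which adds a further one and leads to the disialo gangliosides, stood at 62.3 and 66.9 CPM. B4galnt1, which opens the way to complex gangliosides, had only 201 and 239 UMIs, or 11.7 and 12.0 CPM, and St3gal2, which sialylates their ends, stood at 41.1 and 37.5 CPM. The called genes of the group were a pair of enzymes on chromosome 18 that extend chains of sialic acid. St8sia3 (64387430 to 64412682, plus strand, GRCm39) had 291 and 443 UMIs, or 16.9 and 22.3 CPM, a log2 ratio of 0.40 (0.18 to 0.62). St8sia5 (77272738 to 77348090, plus strand) had 69 and 57 UMIs, or 4.01 and 2.87 CPM, a log2 ratio of -0.48 (-1.02 to 0.04) whose interval includes 0. St8sia3 overlaps St8sia3os on the other strand, which stood at 20.3 and 19.8 CPM.

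The 4 called genes kept the sign of their ratio in all 13 alternative settings, but each lost its call in some of them. A changed UMI minimum leaves every ratio as it is, so those settings could not change a sign. St8sia3 fell short of the limit at 0.28 with a minimum of 200 genes per nucleus, 0.33 with likely doublets removed and 0.32 in nuclei thinned to 1000 UMIs each. Acer2 stood at 0.17 in thinned nuclei, and St8sia5 at -0.29 in thinned nuclei and at -0.92 in gated nuclei alone, where it had under 100 UMIs. Smpd1, just under the limit, was called in 4 of the 13. Sgms2 ranged from 0.70 in gated nuclei alone to 1.77 in thinned nuclei, with under 100 UMIs in several settings.

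Kept nuclei were gated into classes by detected markers: a nucleus joined a class with at least 3 of its markers and more than of any other class. This placed 3825 nuclei (57.2%) and 3618 nuclei (54.2%). A class is therefore a range and not a type: 1489 and 1279 nuclei held exactly 3 markers, and 1819 and 1895 fell 1 marker short. The gate favoured deeper nuclei, with medians of 2382 and 2709.5 UMIs against 1769 and 1847.5 in ungated ones. The median radial glia-gated nucleus had 4 of its own class's markers and at most 1 of any other class in both libraries, and the dividing class had 7 of its own and up to 3 of another. Radial glia, the stem cells of the developing brain, had 873 and 1007 nuclei, and cortical excitatory neurons 1410 and 1061. Dividing cells, intermediate progenitors, forebrain inhibitory neurons, other excitatory neurons, other inhibitory neurons and fibroblasts also had at least 50 nuclei in each library. The gate for the oligodendrocyte lineage took 2 and 4 nuclei, so the cells best known for galactosylceramide were not described.

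Across the classes of at least 50 nuclei, the genes together took from 1310.7 to 1685.3 CPM in wildtype-labelled nuclei. In knockout-labelled nuclei they took from 1179.3 to 1671.3 CPM. Within each of these 8 classes the interval of the summed log2 ratio between the libraries included 0. Gene by gene, 204 pairs of gene and class had at least 20 UMIs, and the interval lay above 0 in 9 of them (4.41%) and below 0 in 7 (3.43%). Over all 82142 such pairs of any gene the shares were 5.44% and 5.28%, so the sphingolipid genes had no more such pairs than genes at large, and the pairs below are a description. Of 30 genes with 4 or more such classes, Degs1 (4 of 4 classes) and St8sia3 (5 of 5) were higher in the knockout-labelled library in every class and none was lower in every class. The background was 3.51% higher and 3.18% lower of 11593 genes, so 2 of 30 is not far from it.

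Radial glia held 5 of these 16 pairs. St8sia3 had 30 and 79 UMIs there, or 12.9 and 24.0 CPM, a log2 ratio of 0.89 (0.27 to 1.55), while cortical excitatory neurons stood at 20.7 and 21.3 CPM. St8sia3os, which overlaps St8sia3 on the other strand, had 31 and 53 UMIs in radial glia, or 13.4 and 16.1 CPM. In cortical excitatory neurons it stood at 23.6 and 19.5 CPM. Kdsr had the same counts as St8sia3, 30 and 79 UMIs, in radial glia. Acer3 stood at 44.0 and 63.6 CPM in radial glia, a log2 ratio of 0.53 (0.18 to 0.89). Lower in the knockout-labelled radial glia were Galc, at 34.1 and 22.5 CPM with a log2 ratio of -0.60 (-1.07 to -0.12), and Smpd4, at 33.2 and 23.4 CPM with -0.50 (-0.98 to -0.03). Hox genes had 2 and 116 UMIs in these same nuclei, and the part of region in these ratios was not tested. The other 6 higher pairs were Cers6 in forebrain inhibitory neurons, at 159 and 217 CPM with a log2 ratio of 0.45 (0.13 to 0.77), Smpd3 in the same class at 0.33, St8sia1 in other excitatory neurons at 0.50 (0.13 to 0.87), Sptlc2 in cortical excitatory neurons at 0.27, and Cers5 and Ugcg in dividing cells at 0.37 and 0.58. The other 5 lower pairs were Smpd1 in dividing cells, at 13.8 and 5.40 CPM with a log2 ratio of -1.36 (-2.75 to -0.11), St3gal2 in dividing cells at -0.56, Smpd4 in other excitatory neurons at -0.79, and Cers4 and Degs2 in other inhibitory neurons at -1.07 and -1.13. Smpd1 thus lay lower in dividing cells and higher over all nuclei.

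Radial glia and cortical excitatory neurons were then compared within each library. Neither gate was free of RNA of other regions. En1 and En2, which mark midbrain and hindbrain, had 16 and 76 UMIs in radial glia, or 6.90 and 23.1 CPM. In cortical excitatory neurons they had 15 and 49 UMIs, or 3.65 and 12.9 CPM. The part of region in this comparison was not tested. A gene was called where it differed at least 2-fold the same way in both libraries and had at least 20 UMIs over both classes in each. Of 35 genes with that many UMIs, Smpd2, Ugt8a and Asah2 were called higher in radial glia and none lower. Over all 14507 genes so tested 7.53% were called higher and 2.15% lower, so 3 of 35 lies near the background. The promoters printed near the start belong to these 3 genes and to Cers6.

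Ugt8a had 21 UMIs in radial glia against 4 in cortical excitatory neurons of the wildtype-labelled library. Its counts in the other library were 27 against 5. These are 9.05 against 0.974 CPM and 8.22 against 1.32 CPM, log2 ratios of 3.22 (1.65 to 5.22) and 2.64 (1.24 to 4.38). The level in other excitatory neurons, from 13 and 10 UMIs, was 10.6 and 6.13 CPM. Smpd2 stood at 12.5 against 4.38 CPM and at 15.5 against 3.69 CPM, log2 ratios of 1.51 (0.61 to 2.45) and 2.07 (1.20 to 3.04). It also was the gene called over forebrain inhibitory neurons, at 5.86 and 4.30 CPM there. Smpd2 overlaps Ppil6 and Mical1 on the other strand. Ppil6 stood at 8.62 against 3.17 CPM and 9.44 against 3.95 CPM, in the same direction as Smpd2, and Mical1 at 11.2 against 9.25 and 9.44 against 13.2 CPM, and counting without strand could not tell the reads of overlapping genes apart. Asah2 stood at 6.04 against 2.44 CPM and at 5.17 against 1.32 CPM, from 24 and 22 UMIs, log2 ratios of 1.31 (0.03 to 2.64) and 1.97 (0.48 to 3.77). With likely doublets removed, or with at least 4 markers at the gate, Smpd2 alone of the 3 was called. No gene was called where at least 50 UMIs were asked for in each library. None of the 3 had that many, so this setting left them out and could not have called them.

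**Figure D2:**
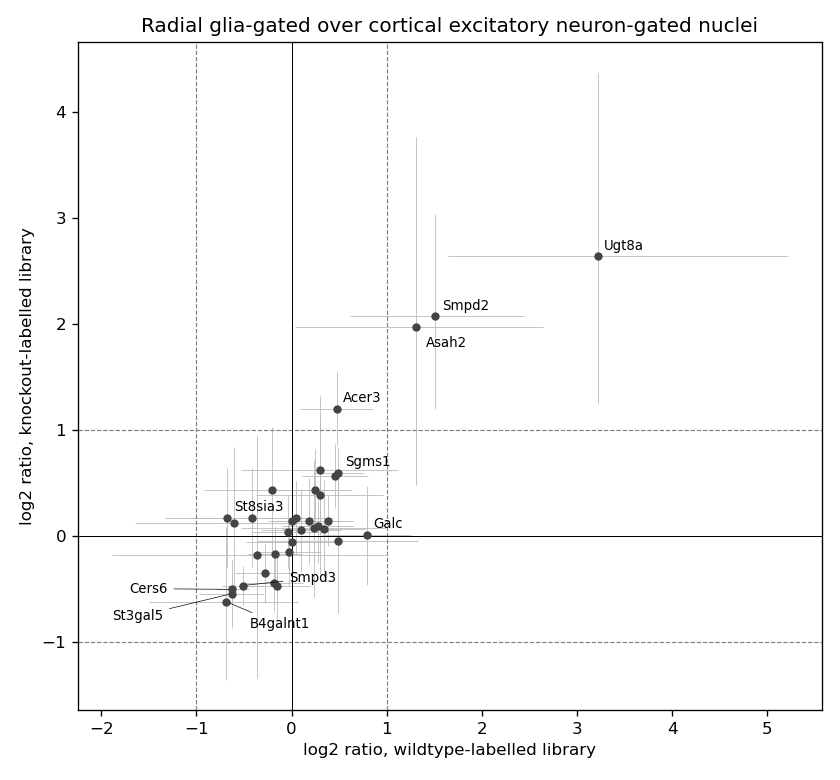
Log2 ratio of CPM in radial glia-gated over cortical excitatory neuron-gated nuclei, in the wildtype-labelled library (horizontal) and the knockout-labelled library (vertical), with counting intervals and dashed lines at 2-fold, for the 35 genes with enough UMIs. Ugt8a, Smpd2 and Asah2 lie past 2-fold in both libraries, and Cers6, Smpd3, St3gal5 and B4galnt1 are among the 10 that lie below 0 in both.

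Differences short of a call had the same sign in both libraries for 25 of 32 genes (78.1%), beside 74.5% of all genes short of a call. Toward the neurons lay Cers6, at 159 CPM in radial glia against 245 in cortical neurons and at 178 against 253, log2 ratios of -0.62 (-0.80 to -0.45) and -0.50 (-0.66 to -0.35). Smpd3, the neutral sphingomyelinase of the Golgi and plasma membrane, lay the same way at -0.51 and -0.47. So did the ganglioside genes St3gal5, at -0.63 (-0.98 to -0.29) and -0.55 (-0.87 to -0.23), and B4galnt1, at -0.69 (-1.50 to 0.07) and -0.62 (-1.36 to 0.09). The intervals of B4galnt1 included 0. The other ganglioside genes did not all lie this way. St8sia1 stood at -0.28 and -0.35, St8sia3 at -0.68 and 0.17, and St3gal2 at 0.05 and 0.17, while St8sia5 had too few UMIs. Toward radial glia lay Sgms1 at 0.49 and 0.60 and Asah1 at 0.46 and 0.56. Acer3 differed in size, at 0.47 (0.09 to 0.86) and 1.20 (0.86 to 1.55). The median over the 35 genes was 0.05 and 0.09, beside 0.17 and 0.13 over all genes tested.

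Against forebrain inhibitory neurons Smpd2 was called among 32 genes, where the background was 7.22% higher and 1.09% lower in radial glia. The log2 ratios of Smpd2 were 1.09 (-0.29 to 2.82) and 1.85 (0.41 to 3.78). Between cortical excitatory and forebrain inhibitory neurons no gene of 31 was called, beside 4.09% higher and 2.15% lower over all genes. Sgms1 was close to the limit, with 91.8 CPM in radial glia against 51.6 in inhibitory neurons and 96.8 against 44.1 CPM, log2 ratios of 0.83 (0.36 to 1.34) and 1.14 (0.66 to 1.64). Smpd3 was lower in radial glia than in inhibitory neurons, at 111 against 166 and 121 against 208 CPM.

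Levels were then set against all other nuclei in 13 classes, including 5 smaller ones with as few as 19 nuclei in a library. A pair of gene and class was counted where it was at least 2-fold over all other nuclei in both libraries with at least 3 UMIs in each, a rule chosen after the values were seen. This held for 12 of 481 pairs of the genes with at least 100 UMIs (2.49%), beside a background of 3.05% over all genes. None of the 12 lay in a neuronal or progenitor class. The background was taken over all 13 classes together, and the rule asked for the same 3 UMIs in small and large classes. Whether genes at large are as rarely counted in the neuronal and progenitor classes was not tested.

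Sgms2 and its relative Sgms1 stood out in the choroid plexus, the epithelium that makes cerebrospinal fluid. In 21 and 29 choroid-gated nuclei Sgms2 had 8 and 10 UMIs, or 103 (44.4 to 203) and 99.8 CPM, 65.2-fold and 29.0-fold over other nuclei. The log2 ratio between the libraries in that class was -0.04 (-1.54 to 1.50), a wide interval that includes the 0.95 found over all nuclei. Without nuclei gated as choroid plexus or endothelium the UMIs of Sgms2 came to 25 and 66, a log2 ratio of 1.19 (0.51 to 1.92), with under 100 UMIs in all. Sgms1 stood at 270 and 339 CPM in choroid plexus, 209 and 234 CPM in endothelium and 185 and 176 CPM in mural cells, which wrap the vessels. Cers4 stood at 231 and 249 CPM in choroid plexus.

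Both low ceramidases were high in endothelium. Asah2 stood at 27.4 and 19.2 CPM there, from 8 and 7 UMIs. Acer2 had 5 UMIs in 47 nuclei and 20 UMIs in 64 nuclei, or 17.2 and 55.0 CPM, a log2 ratio of 1.68 (0.22 to 3.45). Without choroid plexus and endothelial nuclei the log2 ratio of Acer2 over the remaining nuclei was 0.42 (0.09 to 0.75), so most of its UMIs and its call lay outside these classes. In the mural class St3gal2 stood at 155 and 123 CPM. In the microglia or macrophage class, of 22 and 19 nuclei, the lysosomal enzymes Asah1, at 256 and 120 CPM, and Galc, at 68.4 and 75.1 CPM, were counted, as were Acer3, at 120 and 150 CPM, and Cerk, at 103 and 90.1 CPM. Each of these rested on 4 to 15 UMIs. Sphk1, under the UMI minimum over all nuclei, had 8 of its 18 and 4 of its 18 UMIs in fibroblasts, at 38.6 and 15.2 CPM.

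**Figure D3:**
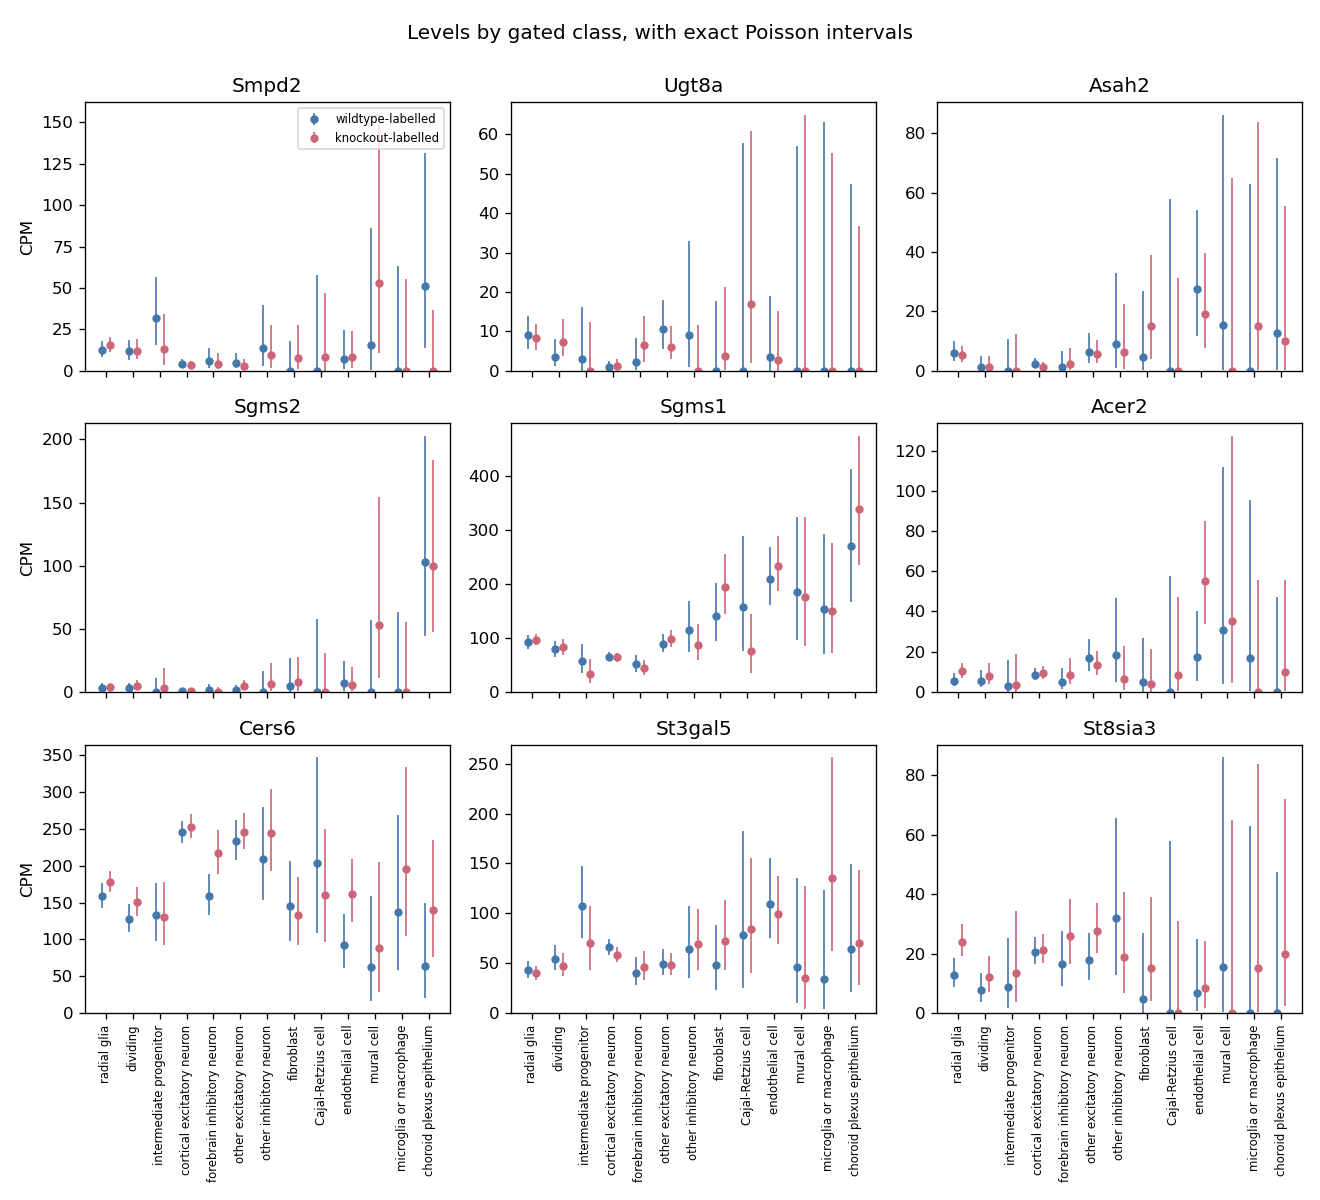
CPM of 9 genes in each gated class, with exact Poisson 95% intervals, with the libraries in different colours. Sgms2 sits near 100 CPM in choroid plexus epithelium of both libraries, and Cers6 is highest among these genes in cortical excitatory neurons at 245 and 253 CPM.

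Haemoglobin RNA, which nuclei of brain cells should lack, stood at 999 and 783 CPM over all nuclei and at 1123 and 730 CPM in radial glia. The source of this RNA was not tested. Free RNA in the droplets was not measured, and a level of a few CPM in a class was not separated from it.

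**Figure D4:**
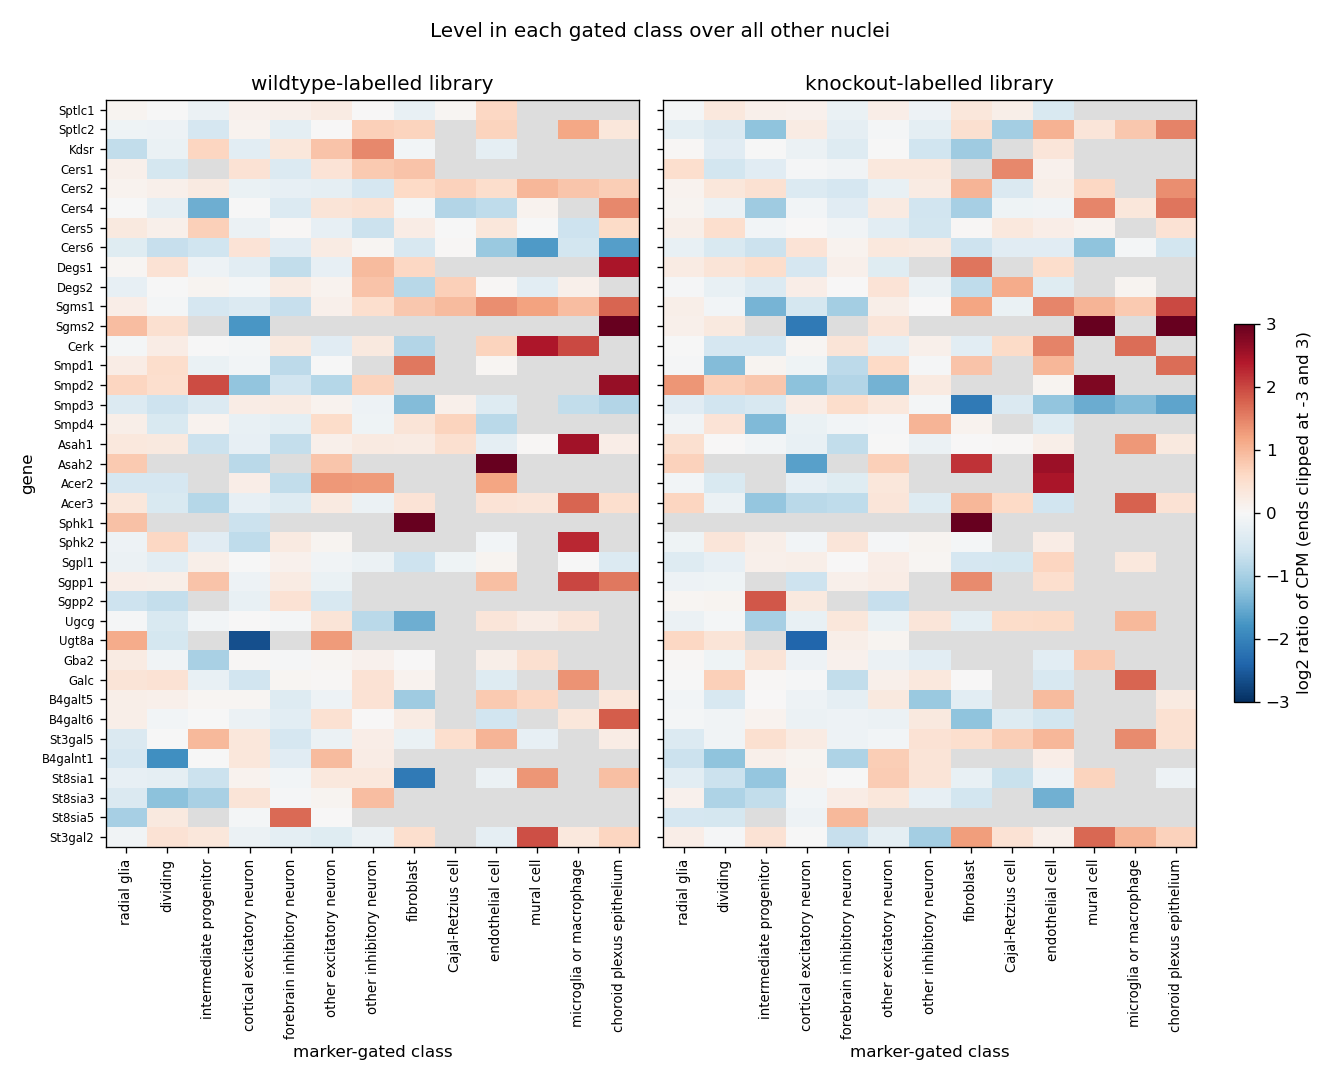
Log2 ratio of CPM in each gated class over all other nuclei for the 38 genes, in the wildtype-labelled (left) and knockout-labelled (right) library, with colours clipped at -3 and 3. The strongest shared entries are Sgms2 in choroid plexus and Sphk1 in fibroblasts, and the neuronal columns are pale for most genes.

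Genes of the pathway outside the set were also mostly short of a call. Of 53 listed by function, 38 had at least 100 UMIs. Of these, 4 were called higher in the knockout-labelled library and 0 lower, beside 5.97% and 3.04% over all genes. The ratio was above 0 for 27 of these other genes (71.1%), beside 59.5% of the 37 described above and 46.5% of all genes. The median log2 ratio of the other genes was 0.02. Among those called were the sphingosine phosphate receptor S1pr2 with a log2 ratio of 0.57 (0.03 to 1.13), the ganglioside galactosyltransferase B3galt4 at 0.50 (0.03 to 0.98) and Gm2a, the activator that presents a ganglioside to its hydrolase, at 0.44 (0.07 to 0.82). Between radial glia and cortical excitatory neurons 36 of the other genes had enough UMIs. In radial glia 2 were called higher and 1 lower, beside 7.53% and 2.15% over all genes. The receptor S1pr1 stood at 13.8 CPM in radial glia against 3.17 in cortical excitatory neurons, and at 19.5 against 3.16 CPM in the knockout-labelled library. Smpdl3a, a relative of the acid sphingomyelinase, stood at 10.8 against 2.44 and 9.74 against 3.69 CPM. In the other direction St3gal1, a sialyltransferase that acts mainly on glycoproteins, stood at 43.5 against 91.6 and at 34.4 against 77.7 CPM.

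Gene models overlap for much of the set. In the GENCODE annotation 24 of the 38 genes overlap a gene on the opposite strand and 7 a gene on the same strand, while 13 overlap none. Longer genes tended to have more UMIs, with a Spearman rho between gene span and CPM of 0.28 and 0.29 across the 38 genes, given as a description across genes that share a library.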

How the data were processed

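Nuclei of whole fetal brain were captured with a 10x Chromium 3.1 kit, per the labels' protocols, in 1 wildtype-labelled and 1 knockout-labelled library. The authors deposited raw UMI counts per gene and barcode, and per the file headers the matrices came from Cell Ranger 6.1.1. The submitters' processing notes name Cell Ranger 3.0.1, STAR and the build GRCm39. The gene annotation, the use of intronic reads and of strand are not given in the sources used here, and GENCODE M39 supplied the gene spans.

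Python 3.11.15, numpy 2.4.6, scipy 1.17.1, pandas 2.3.3 and scanpy 1.11.5 were used. Barcodes with at least 500 genes and at most 5% mitochondrial UMIs were kept, and UMIs were summed per library and per class. Ratios of CPM carry exact conditional binomial (Clopper-Pearson) intervals and levels exact Poisson intervals, at 95%. UMIs over nuclei of 1 library are not replicates, and no p-value is given. Scrublet's own threshold marked 0 nuclei in each library and so did not work. Doublets were kept, and an alternative removed the 534 nuclei of each library with the highest score (8%). The code for ratios, intervals and fold calls was tested on simulated UMI sums, while summing and gating were not.

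The genes, lists and rules were chosen with earlier results of these data known. Full values are given for genes past 1.3-fold between libraries or 2-fold between classes, and the others are given by role. Classes used 15 marker lists with 142 genes. Alternatives changed the gene minimum, mitochondrial limit, doublets, depth, scaling, class mix, UMI minimum and marker gate. The values of 1 pathway gene, and of 1 regional gene with the alternative built on it, are not reported here.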

Additional observations from a re-analysis of the deposited data

How the results depend on the processing

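The summed ratio of the 38 genes stayed between 0.02 and 0.05 on the log2 scale in all 13 alternatives over all nuclei, 4 of which were chosen after seeing the data. A changed UMI minimum could not alter this ratio, and scaling by the median of gene ratios only shifted it by a constant. The count of genes called lower, 1 as reported, was 3 in nuclei thinned to 1000 UMIs (Smpd2, Smpd4 and Galc), 0 with at least 300 UMIs and 0 in gated nuclei alone. The count called higher ranged from 2 to 4. Genes higher in radial glia than in cortical excitatory neurons, 3 as reported, were 1 with at least 4 markers, 1 with doublets removed and 0 with at least 50 UMIs in each library. Against forebrain inhibitory neurons the count went from 1 to 0 with at least 50 UMIs, and to Sgms1 in place of Smpd2 with at least 4 markers. Fewer genes were tested under the higher UMI minimums, which left out St8sia5 between libraries and Smpd2, Ugt8a and Asah2 between classes. In gated nuclei alone St8sia5 had under 100 UMIs and was left out too. For the other settings the cause was not tested. Thinning left out 846 and 1111 nuclei. No paired analysis was possible because there is 1 library per genotype and the labels carry no replicate numbers. Depth limits the genes with under 100 UMIs in a class, whose intervals often span more than 2-fold.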
